A study of Rattus norvegicus with 2 samples.

Results

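Single-cell RNA sequencing was performed on epithelium of the proximal jejunum, the upper part of the small intestine just past the duodenum, of 2 adult male Sprague Dawley rats aged 6-8 weeks. The animals carried no engineered allele, received no treatment other than an overnight fast, and gave 1 library each, so that there was 1 condition and the comparisons below were between kinds of cells, with the rat as the replicate (n = 2). The epithelium was released with EDTA and dispase and captured on 10x 3′ chips, on which each messenger RNA molecule is counted once through a unique molecular identifier (UMI). The genes described here are 40 genes of DNA synthesis and cell division, 20 expressed in S phase (S members) and 20 in G2 and mitosis (G2M members), chosen by name out of 32883 listed genes. The files held a row for 39 of the 40: Ccnb2 was not analysed here. Hells, a chromatin remodeller, had a row and 0 UMIs in both libraries, so that 38 members, 19 of each set, were tested.

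The small intestinal epithelium is renewed continually by division in the crypts, where Lgr5+ stem cells at the base and their transit-amplifying daughters proliferate. Cells that move up on to the villus leave the cell cycle and become absorptive enterocytes or secretory goblet, tuft and enteroendocrine cells (EECs), and in the rat also CFTR high expressers (CHEs). The transcripts of the cell cycle come in waves. As cells enter S phase, E2F factors switch on genes for replication licensing (the Mcm helicase, Cdc6, Cdt1). They also switch on genes for nucleotide and DNA synthesis (Rrm1, Tyms, Pcna). Cyclins, kinases and spindle proteins (Ccnb1, Cdk1, Aurka, Plk1, Cenpf) peak later. Promoters of such later genes often hold CHR elements, which the DREAM and MMB-FOXM1 complexes bind, and CCAAT elements.

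The libraries held 12033 barcodes with 99986348 UMIs (rat 1) and 8252 barcodes with 66469907 UMIs (rat 2). Cells with over 5000 UMIs and at most 40% mitochondrial UMIs were retained, 6035 in rat 1 (median 12231 UMIs) and 2303 in rat 2 (median 13334 UMIs); 28 barcode sequences occurred in both libraries and 4 among the retained cells. The retained cells held 93.1% of the members' UMIs in rat 1 and 67.6% in rat 2. The cells were clustered without the members and 210 cell cycle rows in all, and clusters were named from marker genes. Enterocyte-like cells were the largest class in both rats (4101 in rat 1 and 1134 in rat 2), and the other classes differed in size between the rats. Crypt-like cells numbered 1089 and 27, goblet-lineage-like 372 and 153, tuft-like 17 and 118, EEC-like 22 and 11, CHE-like 8 and 77, erythroid-like 28 and 311, and non-epithelial cells 9 and 334. The sums of crypt-like cells of rat 2, and of tuft-like, CHE-like and non-epithelial cells of rat 1, thus rest on few cells. The remaining 389 and 138 cells were left unnamed. Stem markers (Lgr5, Olfm4 and others) reached a mean log-normalised level of 0.50 and 0.20 in the 2 crypt-like clusters, whose leading genes were ribosomal protein genes and, in 1 of them, the member Hmgb2; a goblet-lineage-like cluster reached 0.30. The classes were not defined by the members, but they rest on other genes of the same cells. The 2 libraries were made with different Cell Ranger versions (3.1.0 and 5.0.1 in the file headers), and version and rat cannot be told apart.

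Both sets of members were high in crypt-like and non-epithelial cells and low in enterocyte-like, EEC-like and erythroid-like cells. They were uneven between the rats in goblet-lineage-like, tuft-like and CHE-like cells. S members of rat 1 lay near the crypt-like level in tuft-like cells. In CHE-like cells the values of rat 1 were under the enterocyte-like ones for both sets. They rest on only 5 UMIs of S members and 10 UMIs of G2M members, too few to rank these classes. Levels are given as CPM, the UMIs of a gene over all UMIs of the summed cells, scaled to counts per 1e6. In crypt-like cells summed S members stood at 1230 CPM (rat 1) and 1641 CPM (rat 2), against 79.9 and 68.7 CPM in enterocyte-like cells, 15.4-fold and 23.9-fold higher. Summed G2M members stood at 4245 and 3909 CPM in crypt-like and 212 and 41.2 CPM in enterocyte-like cells, 20.0-fold and 94.8-fold higher. The crypt-like levels of the rats lay close together, and the wider range of the G2M ratio came from the enterocyte-like level. Of the 28 levels of the other 7 classes (2 sets, 2 rats), 22 were above the enterocyte-like level of the same rat. Hmgb2, a chromatin protein of the HMG-box family, made up 1656 of the 4245 CPM of G2M members in rat 1 and 1782 of the 3909 CPM in rat 2.

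**Figure D1:**
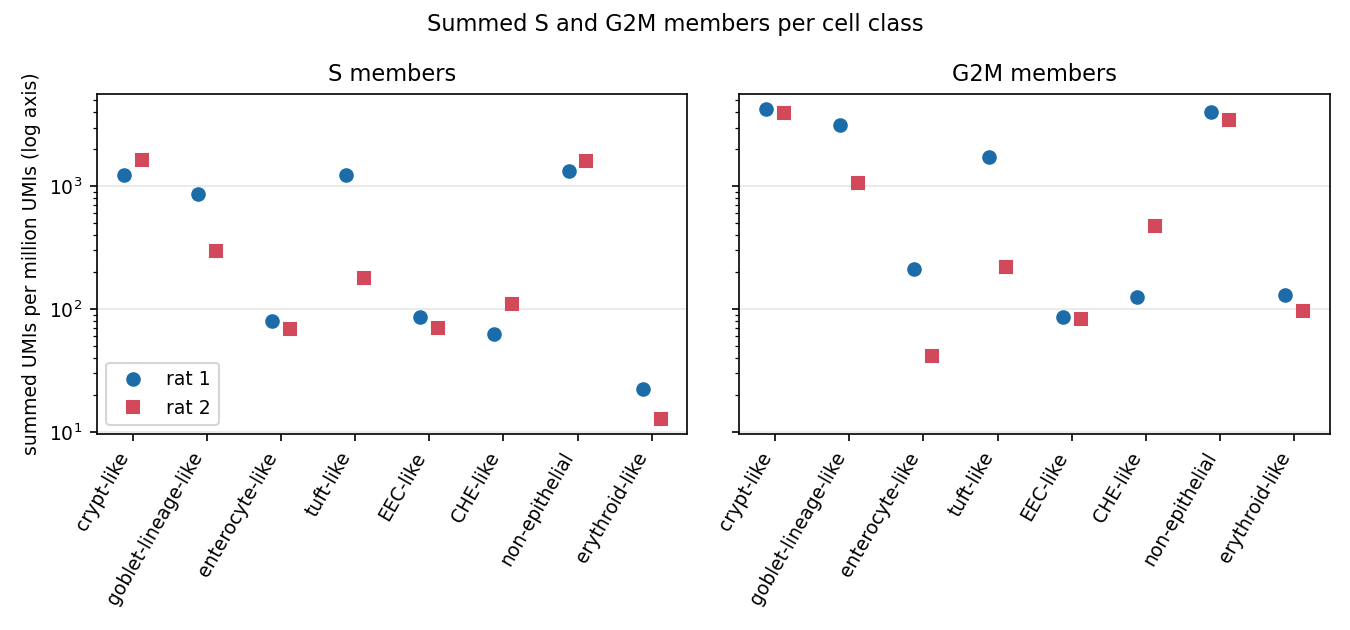
Summed CPM (log axis) of the 19 S members (left) and 19 G2M members (right) in each cell class, 1 point for each rat. Crypt-like and non-epithelial cells lie between 1230 and 1641 CPM for S members and between 3483 and 4245 CPM for G2M members in both rats, while tuft-like and goblet-lineage-like cells of rat 2 lie below those of rat 1.

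**Figure D2:**
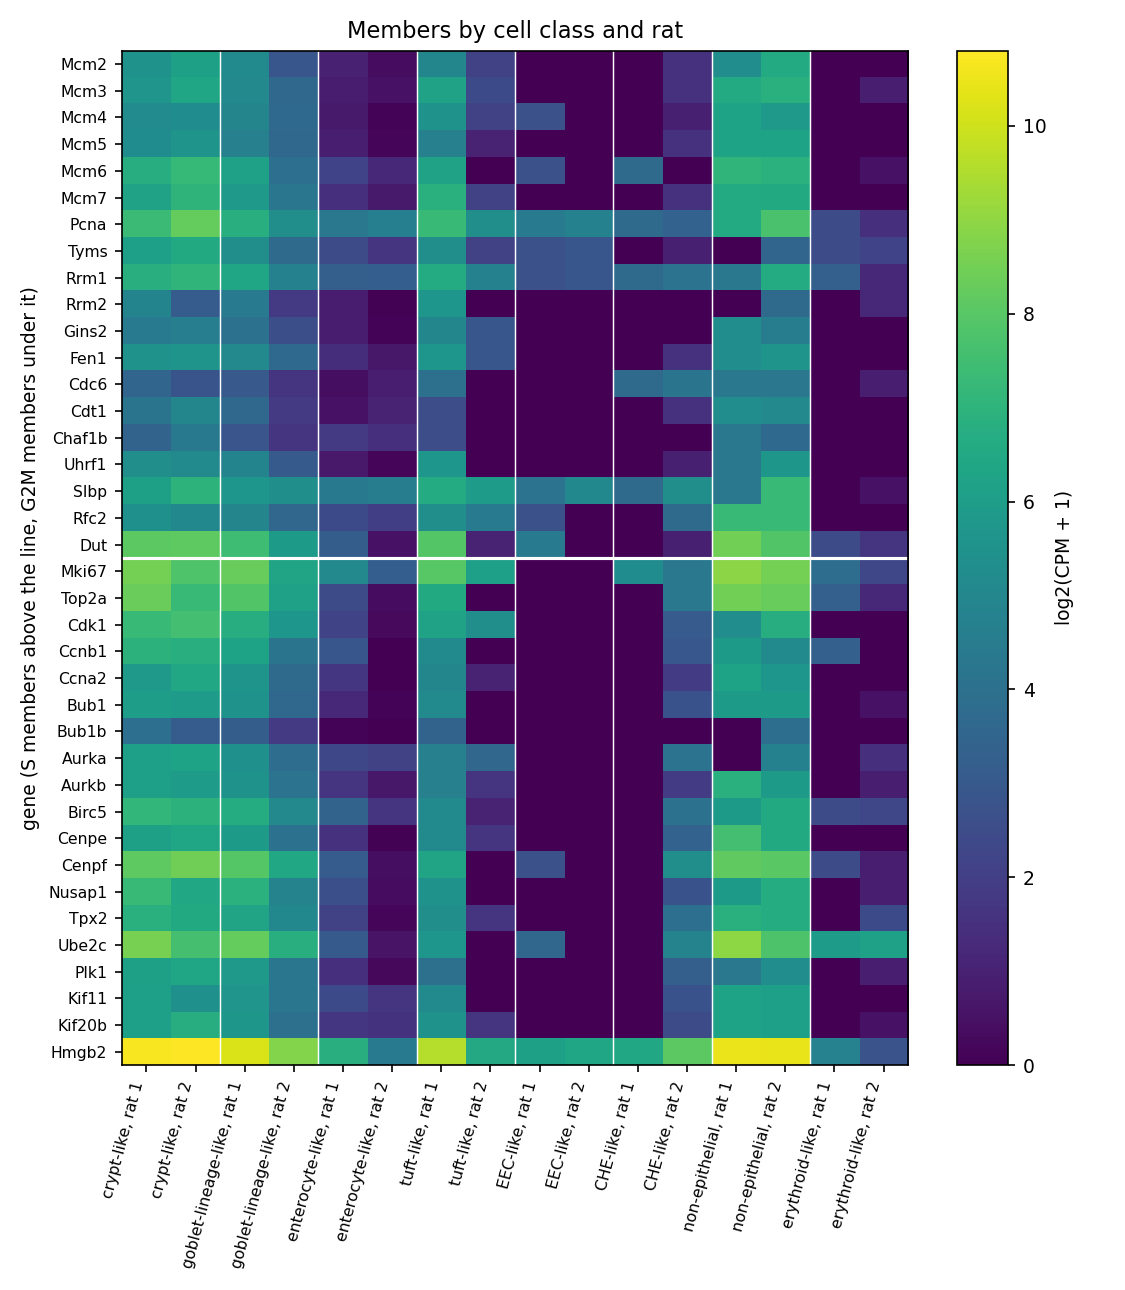
Level of each member (rows; S members above the white line) in each cell class and rat (columns), as log2(CPM + 1). Crypt-like and non-epithelial columns are bright for most members, with Hmgb2 (1656 and 1782 CPM in crypt-like cells) in the last row. EEC-like columns are dark for most, with Hmgb2, Pcna and Slbp among the exceptions in both rats.

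The first comparison asked which members separate the dividing compartment from absorptive cells. Of the 38 members, 36 were higher in crypt-like than in enterocyte-like cells by edgeR (adjusted p under 0.05): 17 of 19 S members and all 19 G2M members tested, against 9.81% of 9532 genes called higher and 11% lower. The median log2 fold change was 4.81 for S members and 5.13 for G2M members, beside -0.06 over all genes tested, and each of the 38 was higher in both rats. The fit used TMM factors. On plain CPM the median over all genes was 0.52 in rat 1 and 0.82 in rat 2 here, and for the other classes against enterocyte-like cells it lay between -0.48 and 0.93 (both non-epithelial), so that per-rat CPM contrasts stand above or below the fit by such amounts.

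The helicase that unwinds DNA at replication forks, Mcm2 to Mcm7, was among the S members with the widest contrast. Mcm2 stood at 44.3 CPM (rat 1) and 69.1 CPM (rat 2) in crypt-like and at 0.971 and 0.297 CPM in enterocyte-like cells, a log2 fold change of 5.58 (SE 0.98; edgeR adjusted p = 0.00215). Mcm3 stood at 47.9 and 81.0 CPM against 0.791 and 0.445 CPM, and its log2 fold change was 5.79 (SE 0.98; edgeR adjusted p = 0.00149). In both genes the crypt-like values of either rat stood far above both enterocyte-like values. Over the 6 helicase genes the log2 fold change ran from 4.86 (Mcm6) to 5.79 (Mcm3). The licensing factors were also higher: Cdc6, which loads the helicase, by 3.04 (SE 1.00) and its partner Cdt1 by 4.00 (SE 0.90) on the log2 scale. Cdc6 was scarce in both classes, with 10.6 and 5.93 CPM in crypt-like and 0.324 and 0.890 CPM in enterocyte-like cells.

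The genes of nucleotide supply and of the replication fork differed more widely in their contrast. Dut, which removes dUTP, stood at 268 and 277 CPM in crypt-like and at 8.02 and 0.445 CPM in enterocyte-like cells. Tyms, the thymidylate synthase, stood at 66.6 and 92.8 CPM against 4.55 and 2.11 CPM. Pcna, the sliding clamp of DNA polymerase, stood at 163 and 300 CPM against 18.9 and 24.1 CPM, and its log2 fold change of 2.52 (SE 0.66; edgeR adjusted p = 0.0134) was less than that of the helicase genes. Slbp, which binds the stem-loop of histone messenger RNAs, stood at 69.5 and 126 CPM against 19.6 and 23.1 CPM, and Chaf1b, a subunit of the histone chaperone CAF-1, at 9.71 and 19.8 CPM against 2.61 and 1.70 CPM. These last 2 were the only members that did not pass. Their log2 fold changes were 1.29 (SE 0.66, edgeR adjusted p = 0.177) and 1.82 (SE 0.84, edgeR adjusted p = 0.139). The 2 values of each class did not overlap, but the share of all genes that do so is not given here. The enterocyte-like Pcna and Slbp UMIs lay mostly in cells under the limit set below for cycling cells: such cells of rat 1 held 18.1 CPM of Pcna and 19.5 CPM of Slbp.

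Among the G2M members the log2 fold change ran from 3.12 (Mki67) to 6.68 (Bub1b). Top2a, the topoisomerase that untangles sister chromatids, stood at 318 and 160 CPM in crypt-like and 4.76 and 0.297 CPM in enterocyte-like cells, a log2 fold change of 5.84 (SE 1.44; edgeR adjusted p = 0.0107). Ube2c, the ubiquitin-conjugating enzyme of the anaphase-promoting complex, stood at 387 and 194 CPM against 7.37 and 0.482 CPM. Cdk1, the mitotic kinase, stood at 158 and 188 CPM against 3.67 and 0.222 CPM. For these genes the enterocyte-like level of rat 2 was below that of rat 1, and no crypt-like value came near an enterocyte-like one. Bub1b, a checkpoint kinase, had the largest fitted change of all members, 6.68 (SE 1.29), on 0.0899 CPM in enterocyte-like cells of rat 1 and 0 UMIs in rat 2; Ccnb1 and Ccna2, the cyclins of mitosis and of S to G2, also had 0 UMIs in enterocyte-like cells of rat 2, so that their size is not fixed by these counts. Mki67, the coat protein of mitotic chromosomes that is stained as Ki67, had the smallest change of the set, 3.12 (SE 0.77; edgeR adjusted p = 0.0106). It stood at 374 and 229 CPM in crypt-like cells and kept 32.9 and 8.49 CPM in enterocyte-like cells.

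Taken per cell at an equal depth of 5000 UMIs, which no retained cell fell short of, Mki67 was seen in 59.0% (exact 95% interval 56.0% to 61.9%) of crypt-like cells of rat 1 and 48.1% (28.7% to 68.1%) in rat 2. Mki67 was seen in 13.5% and 3.70% of enterocyte-like cells and in 7.14% and 2.25% of erythroid-like cells, which were taken as background. Without thinning the shares were 75.8% and 66.7% in crypt-like, 28.4% and 14.4% in enterocyte-like and 7.14% and 2.89% in erythroid-like cells, whose median depths were 13335 and 20388, 11995 and 24778, and 5461 and 7071 UMIs. The crypt-like share was above both others in each rat. The erythroid-like cells also held 62.6 and 70.7 CPM of Ube2c, so that they are not a clean background. The 110 enterocyte-like cells of rat 1 called cycling below held 167 CPM of Mki67 and the others 28.9 CPM. The erythroid-like intervals (0.877% to 23.5%, on 28 cells, and 0.910% to 4.58%) include the enterocyte-like shares. They therefore cannot place those shares against background. The intervals cover counting error only. In a sum over cells, more cells with a transcript and more transcripts in each cannot be told apart.

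The count of members called depended on single sums, each the cells of 1 class of 1 rat. It was 21 without the crypt-like cells of rat 1 and 14 without the enterocyte-like cells of rat 2, in fits in which the lone sum is taken to vary like the other groups; all 38 fitted changes kept their sign.

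To count dividing cells without use of the members, a cell was called cycling when it held at least 5 UMIs of held-out cell cycle genes, 24 of S phase and 28 of G2 and mitosis, none of them a member, after thinning to 5000 UMIs. In crypt-like cells 963 of 1089 (88.4%, exact 95% interval 86.4% to 90.3%) were cycling in rat 1 and 21 of 27 (77.8%, 57.7% to 91.4%) in rat 2. Among goblet-lineage-like cells the share was 45.4% in rat 1 and 8.50% in rat 2, and among tuft-like cells 52.9% (9 of 17) and 1.69% (2 of 118). Of enterocyte-like cells 2.68% were cycling in rat 1 and 0 of 1134 in rat 2, a count that allows up to 0.265%. None of the 22 and 11 EEC-like cells was cycling, which allows up to 13.6% and 27.3%. Up to 98 cells of a class lay within 1 UMI of the limit. The cycling cells of the 2 rats were thus of different kinds: crypt-like cells made up 71.0% of the 1357 cycling cells of rat 1, and non-epithelial cells 73.8% of the 191 of rat 2. The members' own UMIs were placed alike: crypt-like cells held 61.8% of S and 63.8% of G2M UMIs of rat 1, and non-epithelial cells 48.7% and 53.7% in rat 2.

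**Figure D3:**
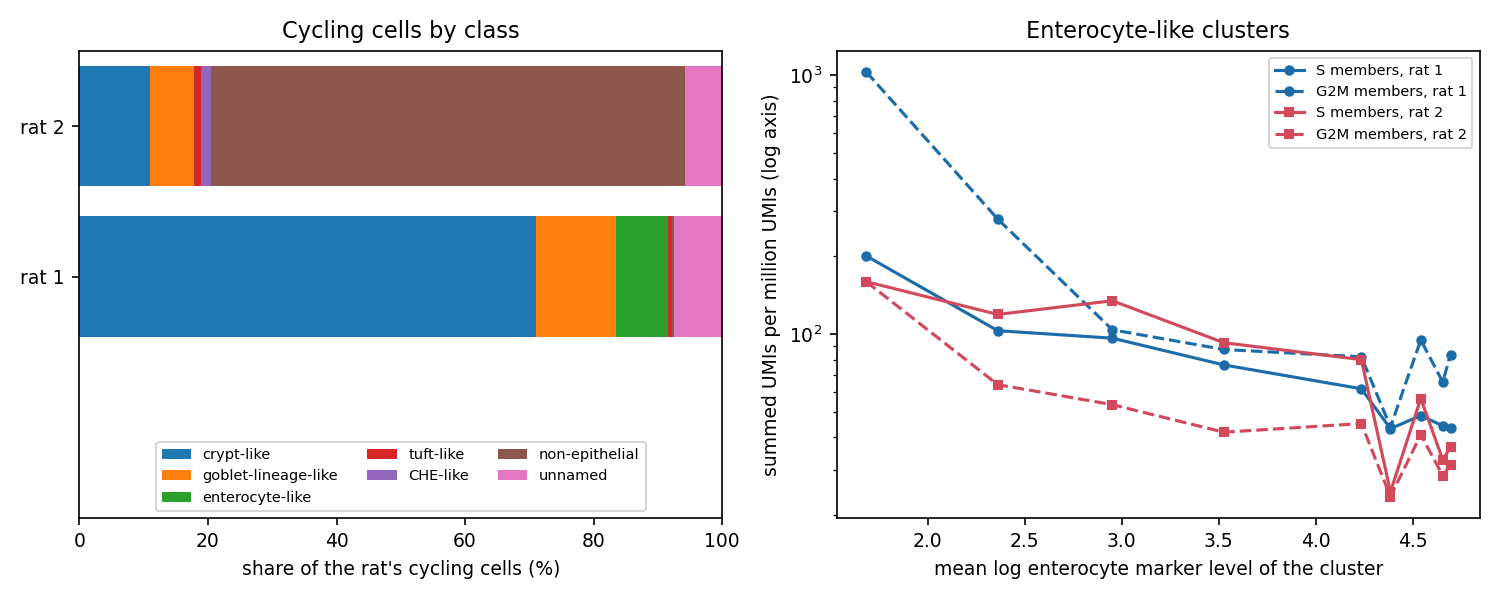
Left, share of each rat's cycling cells (%) that fell in each class: crypt-like cells hold 71.0% in rat 1 and non-epithelial cells 73.8% in rat 2. Right, summed S and G2M members (CPM, log axis) in the 9 enterocyte-like clusters, placed by their mean log level of enterocyte markers: all 4 lines end lower than they start, G2M members of rat 1 at 83.6 from 1031 CPM, with a dip at the sixth cluster.

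Within the enterocyte-like cells the members were highest in the cluster with the lowest enterocyte marker level. When the 9 enterocyte-like clusters were ordered by their enterocyte marker level, summed G2M members of rat 1 stood at 1031 CPM in the cluster of the lowest level and 83.6 CPM in that of the highest, and S members at 201 and 43.5 CPM. In rat 2 the G2M level went from 160 to 31.4 CPM and the S level from 160 to 36.7 CPM, on 16 cells in the first cluster. Of the 110 cycling enterocyte-like cells of rat 1, 99 were in the first cluster, where they made up 20.6% of 481 cells. The order is by marker level, not by position on the villus, and the clusters of a rat share a library, so that it is given without a test.

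Goblet-lineage-like cells carried the members at lower and less even levels. S members summed to 855 and 296 CPM and G2M members to 3142 and 1066 CPM in rat 1 and rat 2, beside cycling shares of 45.4% and 8.50%. By edgeR 11 of 19 S members and 17 of 19 G2M members were higher than in enterocyte-like cells, against 8.11% of all genes called higher and 7.3% lower, with median log2 fold changes of 3.66 and 4.12 beside -0.01 for all genes; all 38 were higher in both rats. The helicase genes Mcm2 to Mcm7, Tyms, Gins2, Fen1, Uhrf1 and Dut made up the 11. Mcm4 stood at 28.9 and 12.0 CPM against 0.719 and 0.0741 CPM in enterocyte-like cells, a log2 fold change of 5.00 (SE 0.99; edgeR adjusted p = 0.00296), and Fen1, which trims Okazaki fragments, at 33.3 and 12.0 CPM against 1.69 and 0.630 CPM. Pcna (113 and 39.3 CPM), the ribonucleotide reductase subunits Rrm1 and Rrm2, Cdc6, Cdt1, Chaf1b, Slbp and the clamp loader subunit Rfc2 did not pass. Of the G2M members, Ccnb1 and the spindle motor Kif11 did not pass. The count of 28 was 18 by DESeq2, 12 without the goblet-lineage-like cells of rat 1 and 3 without the enterocyte-like cells of rat 2.

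When only cycling cells were compared, no member was called between the lineages. Cycling goblet-lineage cells (169 and 13) were set against cycling crypt cells with under 3 Olfm4 UMIs (679 and 15). S members summed to 1154 and 1669 CPM in the goblet lineage and 1210 and 1749 CPM in the crypt, and G2M members to 4459 and 7042 CPM against 4808 and 4826 CPM. In rat 1 both sums were slightly lower in the goblet lineage, and in rat 2 the G2M sum was higher there. By edgeR 0 of 38 members passed, 0 at an unadjusted p under 0.05 and 0 by DESeq2, while 1.99% of genes were called higher and 0.0797% lower. The fitted log2 fold changes ran from -0.42 (Mcm6; SE 0.36) to 0.66 (Ube2c; SE 0.51) and the median SE was 0.42, so that small differences in a single member were not detectable.

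Olfm4, a marker of crypt base stem cells, was used to divide the cycling crypt cells further. Olfm4-high cycling cells (at least 3 thinned Olfm4 UMIs; 284 and 6 cells) had an S sum of 1464 and 2180 CPM, above the 1210 and 1749 CPM of Olfm4-low cells, and a G2M sum of 3840 and 3599 CPM, below 4808 and 4826 CPM. Both rats thus showed the S sum higher and the G2M sum lower, while no member passed on its own. By edgeR 0 of 38 members passed (1 at an unadjusted p under 0.05, and 0 by DESeq2), in a comparison in which 0.106% of genes were called higher and 0.0266% lower. Of the S members 17 of 19 had a positive and of the G2M members 18 of 19 a negative fitted change, with medians of 0.28 and -0.28 beside -0.02 over all genes. Within single rats some members went against their set. Mcm5, Mcm6 and Mcm7 were lower in rat 2, and Rrm2 and Chaf1b in rat 1. Bub1, Bub1b, Cenpe, Plk1 and Kif20b were higher in rat 2, on 6 Olfm4-high cells, and Cenpf in rat 1. The share of all genes with either sign is not given. The lowest was that of Aurka, a kinase of the spindle poles, at 40.7 and 20.3 CPM in Olfm4-high and 86.3 and 106 CPM in Olfm4-low cells, a log2 fold change of -1.29 (SE 0.47; edgeR adjusted p = 0.768). With the rat as a block Aurka was called lower (-1.18, SE 0.36; edgeR adjusted p = 0.046), against 1.34% of genes called higher and 1.23% lower.

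Whether each member follows the phase it is listed for was asked in cycling crypt-like cells, divided by their held-out genes into S-leaning (522 and 9 cells) and G2M-leaning cells (441 and 12). The members divided by their lists: all 19 S members had a positive and all 19 G2M members a negative fitted change, with medians of 1.79 and -1.78 beside -0.02 over all genes. Of the 19 G2M members all were lower in S-leaning cells in both rats, and of the 19 S members 17 were higher in both; the exceptions were Rrm2 in rat 1 and Tyms in rat 2. In the model without a rat term 0 of 38 passed by edgeR (14 S members higher and 18 G2M members lower at an unadjusted p under 0.05; 0 by DESeq2), with 0.0141% of genes called in either direction; the lowest edgeR adjusted p was 0.0512, that of Cenpe. With the rat as a block, 14 S members were higher and 19 G2M members lower, against 1.07% and 1.78% of genes. The count was 0 in each fit that left out 1 sum.

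**Figure D4:**
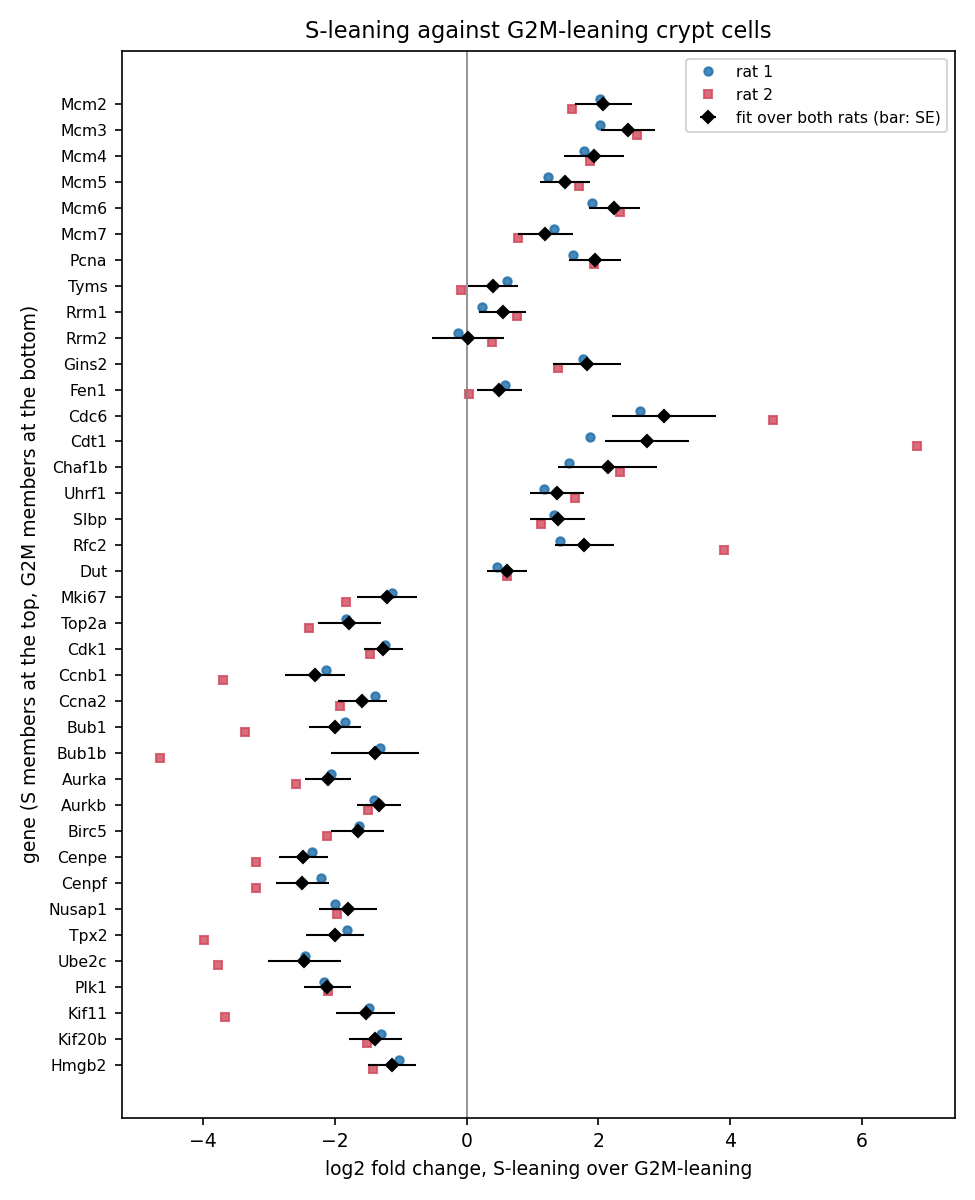
Log2 fold change of each member between S-leaning and G2M-leaning cycling crypt-like cells: coloured points give each rat's own CPM difference (prior count 2), black diamonds the edgeR fit over both rats without a rat term, with bars of 1 SE. All 19 S members (top) have a fitted value above 0 and all 19 G2M members (bottom) below 0; Tyms, Rrm1, Rrm2, Fen1 and Dut lie nearest to 0.

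Cdc6, Cdt1 and Mcm3 had the largest fitted changes towards S. Not all licensing genes moved as far: the fitted changes of Mcm5 and Mcm7 were smaller than those of Chaf1b, Pcna, Gins2 and Rfc2. Cdt1 stood at 27.4 and 76.3 CPM in S-leaning and at 7.01 and 0 CPM in G2M-leaning cells, and Cdc6 at 20.3 and 16.4 CPM against 2.71 and 0 CPM; 0 CPM in rat 2 rests on 12 cells. Mcm3 stood at 81.9 and 174 CPM against 19.7 and 28.6 CPM, a log2 fold change of 2.45 (SE 0.41; edgeR adjusted p = 0.0514, and 4.24e-08 with the rat as a block). For these 3 genes the 2 values of each group did not overlap, a description without the share of all genes that do so. The 5 S members that did not pass with the block serve nucleotide supply or fork processing: Tyms (84.1 and 104 CPM against 54.6 and 110 CPM), Rrm1, Rrm2 (29.2 and 10.9 CPM against 32.1 and 8.16 CPM), Fen1 and Dut. Their fitted changes lay between 0.02 and 0.62, and crypt-like cells under the cycling limit held less of each than either group of rat 1, for example 3.57 CPM of Rrm2.

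Among the G2M members the fitted changes of Cenpf, Cenpe and Ube2c were the largest. Cenpe, a kinetochore motor, stood at 23.5 and 16.4 CPM in S-leaning and 123 and 155 CPM in G2M-leaning cells, a log2 fold change of -2.48 (SE 0.37; edgeR adjusted p = 0.0512, and 1.03e-08 with the rat as a block). Cenpf, a kinetochore-associated protein, stood at 102 and 70.9 CPM against 477 and 657 CPM, and Ube2c at 127 and 27.3 CPM against 698 and 379 CPM. Mki67, Cdk1 and Hmgb2 moved least, by -1.21 (SE 0.45), -1.26 (SE 0.29) and -1.13 (SE 0.37): S-leaning cells kept 249 and 109 CPM of Mki67 against 547 and 388 CPM. Crypt-like cells under the cycling limit (126 and 6 cells) kept 59.2 and 12.9 CPM of Mki67 and 18.6 and 0 CPM of Top2a.

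Promoter sequences are shown for members whose sets moved in opposite directions here. RefSeq promoters on GRCr8 (250 bases before to 50 after the start site) were found for 17 S members (Hells among them) and 16 G2M members (Ccnb2 among them), and a gene with several promoters counts once; the expression files were aligned to an older build, and no coordinate was carried between builds. E2F-type letters were searched as TTTCGCGC, TTTGGCGC, TTTCCCGC and TTTGGCGG on both strands, so that a run such as TTTCGCGCCAAA counts on both. They were found in 11 of 17 S members (64.7%) and 1 of 16 G2M members (6.25%, Cdk1), against 2.18% of 33469 promoters. In these and the next shares a member counts when any of its promoters matches. The 33469 promoters were counted singly, so that the units differ. CHR-type letters, TTTGAA or the palindrome TTCGAA, were found in 5 of 17 S members (29.4%) and 11 of 16 G2M members (68.8%), against 19.7% of promoters, and CCAAT in 47.1% and 81.3%, against 37.5%. The following windows of 100 bases lie before the start site, are written 5′ to 3′ on the gene's strand, and show E2F-type letters in capitals for 4 S members.

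Mcm2 (GRCr8, chr4:122918095-122918194, minus strand): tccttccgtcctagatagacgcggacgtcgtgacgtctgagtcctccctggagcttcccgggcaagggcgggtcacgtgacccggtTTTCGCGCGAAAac

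Mcm5 (GRCr8, chr19:13488563-13488662, plus strand): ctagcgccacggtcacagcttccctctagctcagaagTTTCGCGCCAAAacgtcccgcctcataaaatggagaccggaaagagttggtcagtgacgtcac

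Mcm6 (GRCr8, chr13:42404438-42404537, minus strand): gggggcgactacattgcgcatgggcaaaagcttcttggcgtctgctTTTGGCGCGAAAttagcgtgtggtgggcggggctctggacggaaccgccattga

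Tyms (GRCr8, chr9:120776084-120776183, minus strand): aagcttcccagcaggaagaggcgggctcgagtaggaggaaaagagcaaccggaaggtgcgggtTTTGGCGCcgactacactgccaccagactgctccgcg

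The match in Tyms lies 37 bases before the start site, and those in Mcm2, Mcm5 and Mcm6 overlap on both strands. For the S members without a match, the fitted changes between S-leaning and G2M-leaning cells are given on the log2 scale. They were 1.94 (Pcna), 1.83 (Gins2), 2.14 (Chaf1b), 1.79 (Rfc2), 0.55 (Rrm1) and 0.50 (Fen1). Those of the tested S members with a match ran from 0.40 (Tyms) to 2.74 (Cdt1). Whether the letters go with the size of the change was not tested. For 5 G2M members the capitals mark CHR-type letters.

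Mki67 (GRCr8, chr1:199952658-199952757, minus strand): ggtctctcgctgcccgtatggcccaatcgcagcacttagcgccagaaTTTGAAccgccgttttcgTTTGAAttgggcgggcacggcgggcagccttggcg

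Top2a (GRCr8, chr10:84473193-84473292, minus strand): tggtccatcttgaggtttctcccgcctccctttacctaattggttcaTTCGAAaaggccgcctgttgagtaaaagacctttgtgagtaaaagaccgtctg

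Cdk1 (GRCr8, chr20:19265193-19265292, plus strand): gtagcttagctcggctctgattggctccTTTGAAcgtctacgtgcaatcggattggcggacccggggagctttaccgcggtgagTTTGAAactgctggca

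Kif20b (GRCr8, chr1:241840853-241840952, plus strand): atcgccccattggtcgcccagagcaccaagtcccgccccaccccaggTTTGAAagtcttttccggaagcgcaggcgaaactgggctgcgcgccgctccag

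Birc5 (GRCr8, chr10:103572046-103572145, plus strand): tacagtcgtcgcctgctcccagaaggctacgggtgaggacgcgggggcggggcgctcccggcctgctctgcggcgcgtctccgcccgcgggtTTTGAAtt

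The window of Mki67 holds TTTGAA 2 times, as does that of Cdk1, the window of Top2a holds the palindrome, and that of Birc5, the survivin subunit of the chromosomal passenger complex, ends 2 bases past its match. These are matches of letters, not measured binding sites.

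Non-epithelial cells, those with at most 10 UMIs of Epcam, Krt8, Krt18, Krt19 and Krt20 outside the erythroid clusters, held the members at levels near those of crypt-like cells. S members summed to 1340 CPM (9 cells of rat 1) and 1608 CPM (334 cells of rat 2), and G2M members to 4001 and 3483 CPM. By edgeR 15 of 19 S members and 17 of 19 G2M members were higher than in enterocyte-like cells, against 14.9% of genes called higher and 19.5% lower, with medians of 4.47 and 4.46 beside -0.23 over all genes. Tyms, Rrm2, Chaf1b, Slbp, Ccnb1 and Aurka did not pass. The count of 32 was 8 without the non-epithelial cells of rat 2, 21 without the enterocyte-like cells of rat 2, and 18 when cells of leukocyte-like clusters with more epithelial UMIs were counted in.

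Leukocyte genes were found in these cells. The leukocyte-like clusters were themselves chosen by Ptprc or named by these markers, so that for cells from those clusters this was fixed in advance. In rat 2, 292 came from leukocyte-like clusters (281 with a Ptprc UMI) and 38 from crypt-like clusters (37 with a Ptprc UMI, 26 cycling). The 38 held 3048 CPM of S members and 5411 CPM of G2M members, and the 292 held 1377 and 3193 CPM. Without the cells from other than leukocyte-like clusters 31 members were called against enterocyte-like cells. Of the 141 cycling cells of rat 2, 98.6% held a UMI of Ptprc (CD45) and 100% of Coro1a. Cd3g, Cd8a and Ccl5, genes of T cells, were held by 65.2%, 57.4% and 79.4%. Tyrobp, a gene of NK and myeloid cells, was held by 80.1%, and Cd79b, a B-cell gene, by 8.51%. All 13 leukocyte markers measured were detected, but Cd52 and Jchain in only 2.13% and 1.42% of the cells. In the 4 cycling cells of rat 1, 8 of 13 were detected. In these cycling cells the summed leukocyte markers stood at 4612 and 11793 CPM (rat 1 and rat 2), and 8 enterocyte markers at 3600 and 1942 CPM. Ptprc stood at 1.10 and 19.8 CPM in crypt-like cells. Haemoglobin transcripts made up 126792 CPM of the 9 non-epithelial cells of rat 1 and 21569 CPM in rat 2, and their part in the result was not tested.

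Among cycling cells, 4 of the 6 helicase genes (Mcm2 to Mcm5) and the licensing genes Cdc6 and Cdt1 were higher in non-epithelial than in Olfm4-low crypt cells, while Mcm6 and Mcm7 did not pass (0.64, SE 0.38, and 0.65, SE 0.42). By edgeR 8 S members and 1 G2M member were higher and 1 S member lower, against 11.8% and 15.4% of 7531 genes called higher and lower, so that the 1 lower call among 38 is below the background share. Mcm5 stood at 162 CPM in the 4 cycling cells of rat 1 and 145 CPM in the 141 of rat 2, against 36.4 and 51.5 CPM in cycling crypt cells, a log2 fold change of 1.70 (SE 0.45; edgeR adjusted p = 0.00723). Cdt1 stood at 80.9 and 67.0 CPM against 14.6 and 24.3 CPM, and Rfc2 at 121 and 228 CPM against 40.1 and 27.3 CPM, the largest change at 2.36 (SE 0.45; edgeR adjusted p = 0.000478). With 2 values a group, the groups did not overlap for these 3 genes, and the share of all genes that do so is not given. Mcm2, Mcm3, Mcm4, Cdc6 and Uhrf1, an adaptor of maintenance DNA methylation, were the other S members called (1.38 to 1.80), and Cenpe the G2M member (1.32, SE 0.40; edgeR adjusted p = 0.0165). The sums of all members were also higher in the non-epithelial cells (S 2549 and 2862 CPM against 1210 and 1749 CPM; G2M 8414 and 6967 CPM against 4808 and 4826 CPM).

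Tyms went the other way. It stood at 68.7 and 103 CPM in cycling Olfm4-low crypt cells, at 69.8 and 122 CPM in Olfm4-high ones and at 55.1 and 81.0 CPM in the cycling goblet lineage. In cycling non-epithelial cells it had 0 UMIs among the 24720 of rat 1 and 21.2 CPM in rat 2 (25 UMIs, in 14.9% of 141 cells). The rat 2 value was below all 6 epithelial values, and the 4 cells of rat 1 hold too few UMIs to place theirs. The log2 fold change was -2.05 (SE 0.54; edgeR adjusted p = 0.00664). Of the 10 members called, none passed without the cycling non-epithelial cells of rat 2, 2 without the Olfm4-low crypt cells of rat 1 and 6 without those of rat 2. With cells of leukocyte-like clusters only 9 passed, Mcm2 (1.10), Cdc6 (1.45) and Uhrf1 (1.07) no longer among them, and Ccnb1 (-1.33) and Aurka (-1.59) now lower. DESeq2 called 1, and none passed when all cells of leukocyte-like clusters were counted in.

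**Figure D5:**
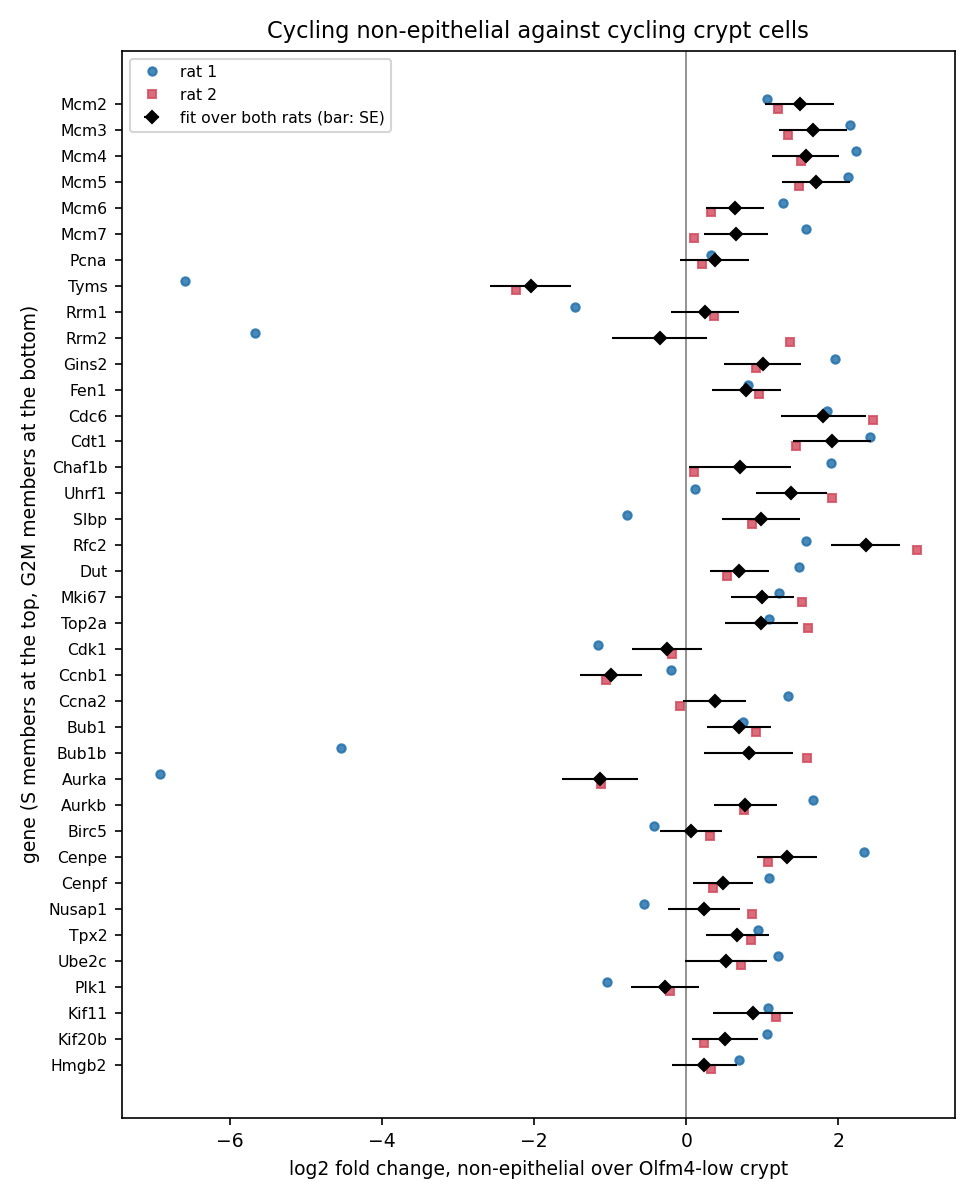
Log2 fold change of each member between cycling non-epithelial and cycling Olfm4-low crypt cells: coloured points give each rat's own CPM difference (prior count 2; 4 cells in rat 1), black diamonds the edgeR fit over both rats with bars of 1 SE. Rfc2 lies furthest to the right (2.36) and Tyms furthest to the left (-2.05) among the fitted values.

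The levels in tuft-like cells differed between the rats. S members summed to 1238 CPM in the 17 cells of rat 1 and 179 CPM in the 118 of rat 2, and G2M members to 1728 and 220 CPM, beside cycling shares of 52.9% and 1.69%. Without integration of the libraries only 6 cells of rat 1 were tuft-like, and these held 124 CPM of S members and 433 CPM of G2M members, so that the high level of rat 1 rests on cells whose class depends on that step. By edgeR 6 S members (Mcm3, Mcm4, Mcm7, Gins2, Fen1 and Uhrf1) and 1 G2M member (Cdk1) were higher than in enterocyte-like cells, against 6.71% of genes called higher and 7.95% lower. With the rat as a block 17 members were called, against 11.5% of genes higher and 13.9% lower; 1 was called without the tuft-like cells of rat 1, 17 without those of rat 2, 13 without the enterocyte-like cells of rat 1, 2 without those of rat 2 and 1 without integration of the libraries. Cdk1 was the member of the 7 whose rat 2 value, 39.0 CPM, came near that of rat 1, 74.3 CPM. In rat 2, 35 of its 36 UMIs lay in 23 of the 116 cells under the cycling limit. Mki67 likewise had 63 UMIs in 41 of these cells and Slbp 56 in 43, whereas Top2a, Ccnb1, Bub1, Cenpf, Ube2c and Plk1 had 0 UMIs in tuft-like cells of rat 2.

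EEC-like cells held few member UMIs, 16 and 11 of S members and 16 and 13 of G2M members in rat 1 and rat 2. Of the G2M UMIs 13 in each rat were of Hmgb2, at 70.2 and 83.4 CPM, between the 111 and 20.4 CPM of enterocyte-like cells of the 2 rats. Mki67, Top2a and Mcm2 had 0 UMIs in both rats. By edgeR no member was higher (0 also at an unadjusted p under 0.05 and by DESeq2) and 1, Mki67, was lower, against 7.48% and 5.97% of genes called higher and lower; that call was not made without the EEC-like cells of either rat or the enterocyte-like cells of rat 1, nor with at most 20% mitochondrial UMIs. With so few cells and UMIs, other differences from the low enterocyte-like levels were not detectable.

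CHE-like cells, which express Cftr, stood at 62.1 and 110 CPM for S members and 124 and 475 CPM for G2M members, on 8 and 77 cells. Of the 503 G2M UMIs of rat 2, 281 were of Hmgb2, and 144 of these lay in its 3 cycling cells, 94 of them in 1 cell. By edgeR only 1 member was higher, Cdc6, a smaller share than the 3.67% of genes called higher (2.73% were called lower). It stood at 12.4 CPM in rat 1, on 1 UMI, and at 17.0 CPM in rat 2 (18 UMIs in 12 cells, none of them cycling), against 0.324 and 0.890 CPM in enterocyte-like cells, a log2 fold change of 4.38 (SE 1.12; edgeR adjusted p = 0.028). The crypt-like values of Cdc6 were 10.6 and 5.93 CPM. In rat 1 the counting interval of the CHE-like value, 0.314 to 69.2 CPM, includes the crypt-like value, so that they cannot be ranked. In rat 2 it was 10.1 to 26.9 CPM, but the crypt-like value of 5.93 CPM rests on few UMIs of 27 cells. Its own counting interval is not given, so that these are not ranked either. No member was called without the CHE-like or the enterocyte-like cells of rat 2, 1 without the CHE-like cells of rat 1, 2 without the enterocyte-like cells of rat 1 and none by DESeq2. With the rat as a block 6 were called, against 6.34% of genes higher and 7.48% lower.

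Cell cycle genes outside the members moved with them in the crypt. Of the held-out genes, 16 of 21 tested S genes and 23 of 25 tested G2M genes were higher in crypt-like than in enterocyte-like cells by edgeR. Of 34 listed cell cycle regulators 28 were tested, and 10 were higher and 2 lower, the latter a smaller share than the 11% of all genes called lower there (9.81% were called higher). The higher ones were the cyclins and kinases of G1 and S entry (Ccnd2, Ccne1, Cdk2, Cdk4, Cdk6), Myc, Mybl2, the inhibitory kinases Wee1 and Pkmyt1 and the Cdk4/6 inhibitor Cdkn2c. Ccne1, cyclin E, stood at 16.2 and 19.8 CPM against 0.234 and 0.0371 CPM, a log2 fold change of 5.98 (SE 1.40; edgeR adjusted p = 0.00982). The lower ones were inhibitors of cyclin-dependent kinases: Cdkn2b (p15) at 21.2 and 7.90 CPM against 94.6 and 73.1 CPM, and Cdkn1a (p21) at 21.7 and 5.93 CPM against 37.9 and 89.9 CPM, log2 fold changes of -3.17 (SE 0.83) and -2.87 (SE 0.95). In cycling non-epithelial against Olfm4-low crypt cells, Ccnd1 (cyclin D1) was lower by -3.02 (SE 0.48; edgeR adjusted p = 8.07e-05) and Cdkn2c higher by 2.33 (SE 0.57; edgeR adjusted p = 0.00428); 24 regulators were tested there, of which 4 were higher and 3 lower, near the 11.8% and 15.4% of all genes.

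Outside every cell cycle list, the genes whose log2 CPM over the 16 sums of class and rat was closest to that of the summed S members were Hirip3 (Pearson r = 0.972), Asf1a (0.961), Trip13 (0.953), Mdc1 (0.953) and Diaph3 (0.951). For the summed G2M members they were Kif20a (0.981), Kntc1 (0.973), Timeless (0.966), Trip13 (0.957) and Diaph3 (0.956). These values are across sums that share 2 libraries and are given as a description.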

How the data were processed

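Single-cell RNA sequencing (10x 3′) was performed on proximal jejunal epithelium of 2 rats (replicates 1 and 2), 1 library each. The authors aligned and counted reads with Cell Ranger (3.1.0 and 5.0.1 per the file headers) against rn6, and deposited unnormalised UMI counts per gene and barcode. The members, gene lists and naming levels were chosen with earlier results of these data known, and the naming levels after the clusters were seen.

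Cells with over 5000 UMIs and at most 40% mitochondrial UMIs were integrated and clustered in Seurat 5.3.0 (R 4.3.3; 2000 variable genes, 20 principal components, resolution 0.3, then 0.5 without blood and leukocyte clusters), with 210 cell cycle rows left out. Clusters were named from fixed marker lists. Scrublet (scanpy 1.11.5) called 119 and 8 doublets (1.97% and 0.347%), which were kept; their removal moved no count of calls by over 1.5 times. Counts were summed per class and rat and tested with edgeR 4.0.16 (quasi-likelihood test, TMM, filterByExpr; Benjamini-Hochberg over all genes tested, threshold 0.05), in 1 model for classes, 1 for cycling cells and 1 for crypt phases, over 10 comparisons. SE is the log2 fold change over the root of F. DESeq2 1.42.0 and a rat block were alternatives. The classes of a rat come from the same animal; over 28 pairs of classes the differences between rats correlated at 0.0662 to 0.558 (median 0.136). P-values rest on the spread between 2 animals, estimated over all sums of a model and not only those compared. Differences of the rats in cell number and library are part of this spread. Shares have exact Clopper-Pearson 95% intervals; a count of 0 allows 3 counts. The tests were checked on simulated data. All 40 members are accounted for by name, other genes by fixed lists, and the 5 closest genes to each set by Pearson r (at least 100 UMIs).

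Not all member promoters were found in the RefSeq table (GRCr8); those of Mcm4, Rrm2, Cdc6, Ccna2, Aurkb, Tpx2 and Ube2c were not analysed here.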

Additional observations from a re-analysis of the deposited data

Results flagged for a closer look

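Cycling cells were also found among the unnamed cells, which entered no comparison: 26.2% of 389 cells in rat 1 and 7.97% of 138 in rat 2, against 2.68% and 0% of enterocyte-like cells. Barcodes that were not retained (5998 and 5949) held the members at 867 and 431 CPM, which is 6.91% and 32.4% of all member UMIs. In erythroid-like cells, none of which was cycling, Ube2c stood at 62.6 CPM (rat 1; 14 UMIs in 8 of 28 cells) and 70.7 CPM (rat 2; 161 UMIs in 94 of 311 cells), against 7.37 and 0.482 CPM in enterocyte-like cells. All G2M members together, Ube2c included, summed to 130 and 96.2 CPM there.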

How the results depend on the processing

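Depth and cell number limit the crypt-like sums of rat 2 and the tuft-like, CHE-like and non-epithelial sums of rat 1, and a whole rat cannot be left out of a test. Summed CPM levels and single-cell shares moved beyond their counting interval in 15 results with mitochondrial genes left out of the totals, 15 with at most 20% mitochondrial UMIs (which left 189 enterocyte-like cells of rat 2), 14 with all UMIs and 11 without integration, where tuft-like cells of rat 1 fell to 124 CPM of S members and 433 CPM of G2M members. Counts of members called in each comparison are given against those in the report. DESeq2 called 18 in goblet-lineage-like, 0 in CHE-like and 1 in cycling non-epithelial cells. Without a filter on low counts 14 were called in tuft-like and 2 in CHE-like cells and 20 between S-leaning and G2M-leaning cells. With the rat as a replicate block, which pairs the classes of an animal, the counts were 17 (tuft-like), 6 (CHE-like), 1 (Olfm4-high) and 33 (S-leaning), and 6 other counts stayed within 1.5 times. Without integration 1 was called in tuft-like cells, where Mcm7 turned to -0.053 and Uhrf1 to -5.49 on the log2 scale. With at most 20% mitochondrial UMIs 0 were called in EEC-like cells, and with all variable genes 6 in cycling non-epithelial cells. Cycling limits of 3 and 10 UMIs gave 21 and 5 between S-leaning and G2M-leaning cells. Alternatives chosen after seeing the data were limits of 200 and 5800 genes (4 in cycling non-epithelial and 10 in S-leaning cells), all cells of leukocyte-like clusters (18 and 0 in the non-epithelial comparisons), only non-epithelial cells of leukocyte-like clusters (31, and 9 among cycling cells) and leaving out 1 sum at a time. The last gave 14 to 32 in crypt-like, 3 to 33 in goblet-lineage-like, 1 to 17 in tuft-like, 0 to 1 in EEC-like, 0 to 2 in CHE-like, 8 to 33 in non-epithelial and 0 to 11 in cycling non-epithelial cells, and 0 throughout in the other 3 comparisons. Leaving out 1 sum at a time moved log2 fold changes from -4.99 to 5.93 for Uhrf1 in tuft-like cells (negative without those of rat 1), and from -0.058 to 2.60 for Rrm1 and -2.23 to 7.96 for Bub1b in non-epithelial cells (negative without those of rat 2). In cycling non-epithelial cells they ran from -0.00178 to 1.73 for Mcm2 and from -0.47 to 1.86 for Uhrf1 (negative without those of rat 2). The cause was not tested.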

Other observations

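Some members' UMIs lay in cells under the cycling limit. Goblet-lineage-like cells under it held 252 CPM of S members and 480 CPM of G2M members in rat 1 and 67.7 and 74.7 CPM in rat 2. Non-epithelial cells under it held 254 and 36.3 CPM in rat 1, on 5 cells, and 462 and 297 CPM in rat 2, so that the order of these classes turned between the rats for G2M members. The 110 cycling enterocyte-like cells of rat 1 summed to 338 CPM of S members and 2514 CPM of G2M members, below the 1210 and 4808 CPM of cycling Olfm4-low crypt cells.

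Cdkn1c (p57), a cell cycle inhibitor named after its values were seen, stood at 6.09 and 149 CPM in enterocyte-like cells (rat 1 and rat 2) and at 79.2 and 106 CPM in tuft-like cells. In crypt-like cells it stood at 1.16 and 288 CPM. The latter rests on 146 UMIs, all in G2M-leaning cells. Only 33.3% of these 12 cells held any, and 2 cells after thinning. In goblet-lineage-like cells it stood at 2.85 and 6.41 CPM. With 1 library a rat these values have no replicate.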
